A study of Saccharomyces cerevisiae with 26 samples.

Results

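Transcripts of 36 genes of the autophagy pathway of Saccharomyces cerevisiae were measured in 26 RNA-seq libraries. The members, from ATG1 (YGL180W) and ATG8 (YBL078C) to the receptors ATG19 (YOL082W), ATG32 (YIL146C), ATG34 (YOL083W), ATG36 (YJL185C), ATG39 (YLR312C) and ATG40 (YOR152C), were taken by identifier and not by their values: the genes of the ATG series up to ATG41, with VPS30 (the ATG6 gene) and ICY2 (YPL250C, called ATG41 here), and SNX4 (YJL036W), a sorting nexin of selective autophagy. All 36 were among the 6692 open reading frames in the deposited count table. By role, 22 encode core machinery of autophagosome formation, 6 encode receptors that choose a cargo, and 8 encode the scaffold Atg11, sorting nexins and factors of membrane recycling, the vacuole or single pathways.

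The strains were of mating type a and shared 1 laboratory background. WT carried the native histone H3. H3A110C carried a cysteine in place of an alanine in histone H3, placed in both H3 genes by genome editing. The gsh1Δ strains lacked GSH1, the gene of the first enzyme of glutathione synthesis, with a drug marker in its place. The cup1F8* strains carried a stop codon early in every copy of CUP1, the gene of the copper metallothionein. Cells grew in SC, a synthetic complete medium with glucose in which yeast ferments, or in SCEG, in which ethanol and glycerol replace glucose and cells must respire. WT_SC, H3A110C_SC, WT_SCEG, H3A110C_SCEG, gsh1Δ_SCEG and H3A110Cgsh1Δ_SCEG had 3 libraries each, and cup1F8*_SCEG and H3A110Ccup1F8*_SCEG had 4 each. The comparisons asked how these transcripts differed between media, with H3A110C, and with the loss of glutathione synthesis or of Cup1.

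Autophagy encloses cytoplasm in a double membrane and delivers it to the vacuole, the digestive organelle of yeast. The Atg1 kinase complex starts the process, Atg9 vesicles and the lipid transfer protein Atg2 supply membrane, a phosphatidylinositol 3-kinase complex marks it, and conjugation reactions attach the small protein Atg8 to lipid and Atg12 to Atg5. Receptors tether a chosen cargo to Atg8 and Atg11, so that mitochondria, peroxisomes, the nuclear envelope or enzyme aggregates are taken up selectively.

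The libraries formed 3 sets that followed medium and genotype. The 6 SC libraries held 9428849 to 12305863 counts, the 12 SCEG libraries without cup1F8* held 2917138 to 6013267, and the 8 SCEG libraries with cup1F8* held 7579367 to 10133258 and were numbered in a series of their own in the labels. Medium, and cup1F8* against the other strains, therefore cannot be told apart from the library set. GSH1 had 0 counts in all 6 gsh1Δ libraries and 109 to 197 CPM in the other 20. STE2, the receptor gene that marks mating type a, stood at 99.8 to 830 CPM in the 26 libraries, and STE3, its counterpart in the other mating type, at 5.18 to 19.5 CPM. Both CUP1 rows stood at 0 counts throughout SCEG, also in strains with intact CUP1, so they did not check the cup1F8* label. The methods describe independent experiments, but the labels do not say which libraries came from separate cultures, so p-values measure the spread between these libraries. In bulk RNA, fewer cells with a transcript and less transcript per cell cannot be told apart. Levels below are normalized CPM, counts scaled to library size after TMM scaling over the 26 libraries. Differences are log2 fold changes, with the standard error (SE), from edgeR's quasi-likelihood test on the 2 groups compared, and a gene was called where its Benjamini-Hochberg adjusted p over all genes tested lay below 0.05.

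Among short motifs searched on both strands of the 300 bases before each start codon in the R64 assembly, the core GATAAG, read by GATA factors, occurred before 12 of the 36 members (33.3%) and before 14.7% of 5985 nuclear open reading frames. GATA factors are nitrogen-responsive regulators of yeast, and Ume6 is a repressor known to act on ATG8. The stress response element core AGGGG occurred before 11 members (30.6%, against 22.2%), the Gcn4 core TGACTC before 4 (11.1%, against 7.77%), the Zap1 centre CTTNAAG before 4 (11.1%, against 10%), the Aft1 core GCACCC before 2 (5.56%, against 4.06%) and the Ume6 core GGCGGC before 2 (5.56%, against 5.21%). GCACCC and AGGGG (read as CCCCT on the other strand) were searched separately, and their matches overlapped before ATG34 and ATG32. A match is a run of letters, not a measured binding site. The stretches that follow, of 30 bases each in the direction of the gene, show the Ume6 core (first line) and the GATA core in ATG8 and in the 4 receptor genes that held it, with the motif in capitals. ATG34 and ATG36 held no GATAAG in the window, and ATG41 held none of the 6 motifs.
ATG8, chrII:80846-80875, minus strand: cggttattttcGGCGGCGGCaaaaatattt
ATG8, chrII:80774-80803, minus strand: gaggaggggattGATAAGagaatctaataa
ATG19, chrXV:168628-168657, plus strand: tgatatgagtttGATAAGgtgtatcagacg
ATG32, chrIX:75821-75850, minus strand: gtgacttctCTTATCGATAAGcaatattga
ATG39, chrXII:759067-759096, minus strand: gcgcgacagctgCTTATCaaggtacctgga
ATG40, chrXV:618362-618391, minus strand: tttcaaatcgagGATAAGatttttgtagtg
In ATG8 the Ume6 core was present as 2 overlapping matches, 133 to 125 bases before the start codon. In ATG32 a pair of GATA cores in opposite directions adjoined each other, 68 to 57 bases before the start codon, and a further match began at base 87.

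Levels per kilobase of coding sequence spanned a wide range. In WT_SCEG the highest were ATG27, an Atg9 trafficking factor, at 121 CPM per kilobase, ATG8 at 120, ATG33, a mitophagy factor, at 107, and ATG41, a partner of Atg9, at 77.6. Lowest of the genes with reads was ATG14, a subunit of the phosphatidylinositol 3-kinase complex, at 7.10. ATG39, the receptor for the nuclear envelope, held different places in the media: it was last of 36 in WT_SC at 4.80 CPM per kilobase and number 7 in WT_SCEG at 59.4. Between the highest and lowest group means, ATG39 differed 27.1-fold and ATG41 8.99-fold. The narrowest ranges belonged to ATG18 (1.32-fold), ATG12 (1.42-fold), ATG23 (1.43-fold) and ATG27 (1.48-fold). ATG23, which helps Atg9 to traffic, was called in none of the 10 comparisons.

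**Figure D1:**
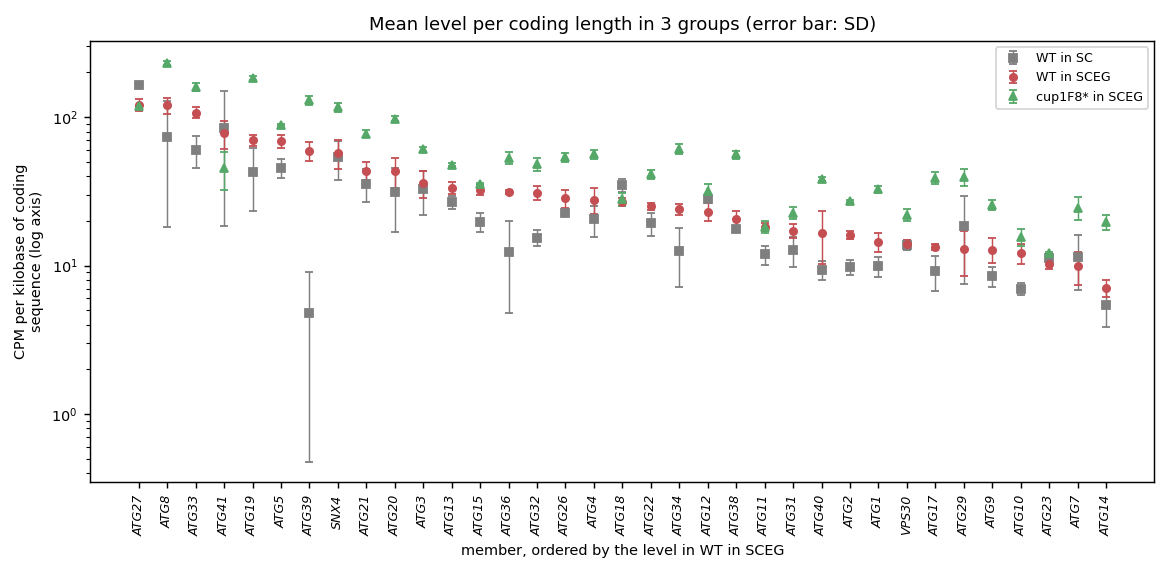
Mean normalized CPM per kilobase of coding sequence (log axis, error bar SD) of 35 members in WT_SC (3 libraries), WT_SCEG (3) and cup1F8*_SCEG (4), ordered by the level in WT_SCEG, with ATG16 left out. ATG39 shows the widest gap between media (4.80 and 59.4), and ATG27, at 121 in WT_SCEG, lies at the top of the order.

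In SC, the library lettered B of each strain stood apart from A and C. Of the 36 members, 29 were above the mean of A and C in WT library B and 32 in H3A110C library B, with medians of 0.39 and 0.67 on the log2 scale. The gap exceeded 1 on the log2 scale for 7 members in WT and for 9 in H3A110C. ATG8 showed it plainly: WT_SC libraries A, B and C were at 15.9, 48.3 and 13.5 CPM and H3A110C_SC at 10.7, 47.6 and 11.8. ATG39 was at 2.15, 11.7 and 3.40 CPM in WT_SC and 1.69, 15 and 3.22 in H3A110C_SC. ATG41 was at 18.6, 66.0 and 19.4 CPM and 17.8, 36.3 and 17.6. In all 3 genes library B was the highest of its group. Its level of ATG8 was above all 3 libraries of WT_SCEG (46.8, 36.4 and 44.1), whereas ATG39 in B remained far below it (75.5, 59.6 and 78.3). Across all genes, chi-square per gene between B and the other libraries of its group was 100.1 to 144.5, against 3.71 and 9.64 between A and C. A second library stood apart in SCEG: in H3A110Cgsh1Δ library 2, 28 of 35 members were below the mean of libraries 1 and 3, and ATG41 was 1.5 above it on the log2 scale. What set these libraries apart is not given in the sources used here, so comparisons that use them are reported with and without them.

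**Figure D2:**
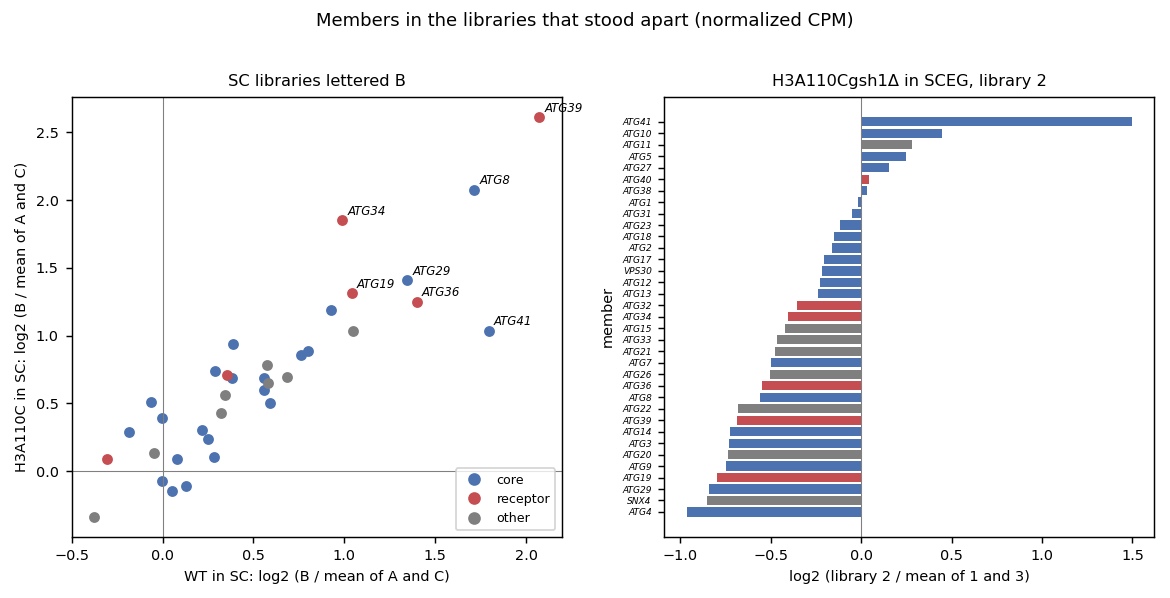
Left, log2 ratio of SC library B to the mean of A and C, WT on the horizontal axis and H3A110C on the vertical axis, 1 point for each of 36 members, coloured by class. Right, log2 ratio of H3A110Cgsh1Δ_SCEG library 2 to the mean of libraries 1 and 3 for 35 members. Most points on the left lie above 0 in both strains, with ATG39 the farthest, and 28 of 35 bars on the right lie below 0, with ATG41 at 1.5.

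Respiratory medium went with higher levels of most receptor genes in WT, and of fewer in H3A110C. In WT, 13 of 36 members (36.1%) were called higher in SCEG than in SC, where 25.6% of all 5816 genes tested were, and 3 (8.33%) were called lower, where 25.3% of all genes were. Of the 6 receptors, 5 rose, with a median log2 fold change of 0.98 over the 6, and of the 22 core genes 5 rose and 3 fell, with a median of 0.28. The median over all genes tested was 0.00. The call counts came from edgeR's quasi-likelihood test, as in all comparisons below. The other 3 that rose were ATG33, ATG11 and ATG15.

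ATG39 showed the largest rise: its 3 WT_SCEG libraries, listed above, were all far over the highest SC library, at a log2 fold change of 3.68 ± 0.56 (SE, adjusted p = 0.00174). ATG36, the receptor for peroxisomes, was at 7.03, 18.6 and 7.07 CPM in SC and 28.0, 28.3 and 26.7 in SCEG (log2 fold change 1.37 ± 0.39, adjusted p = 0.0230). ATG32, the receptor for mitochondria, was at 25.1, 21.2 and 27.3 CPM in SC and 55.1, 48.7 and 44.3 in SCEG (log2 fold change 1.01 ± 0.15, adjusted p = 0.00147). For each of these 3 genes every SCEG library was above every SC library. ATG34, a receptor for vacuolar enzymes under starvation, was at 11.2, 23.2 and 12.2 CPM in SC and 32.4, 29.4 and 27.5 in SCEG (log2 fold change 0.95 ± 0.29, adjusted p = 0.0300). ATG40, a receptor for the endoplasmic reticulum, was at 6.64, 8.41 and 6.53 CPM in SC and 18.6, 10.4 and 9.57 in SCEG (log2 fold change 0.85 ± 0.29, adjusted p = 0.0466). These groups did not overlap either, but in ATG40 library 1 alone was far above SC. ATG19, the receptor of the cytoplasm-to-vacuole targeting (Cvt) pathway, was the exception among receptors: SC libraries were at 39.4, 80.7 and 39.0 CPM and SCEG libraries at 93.9, 79.1 and 87.9, with overlapping groups (log2 fold change 0.72 ± 0.29, adjusted p = 0.0762). Of the fits that left out 1 library, ATG39 and ATG32 kept their call in all 6, ATG40 in 2, and ATG34 and ATG36 in 1 each.

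**Figure D3:**
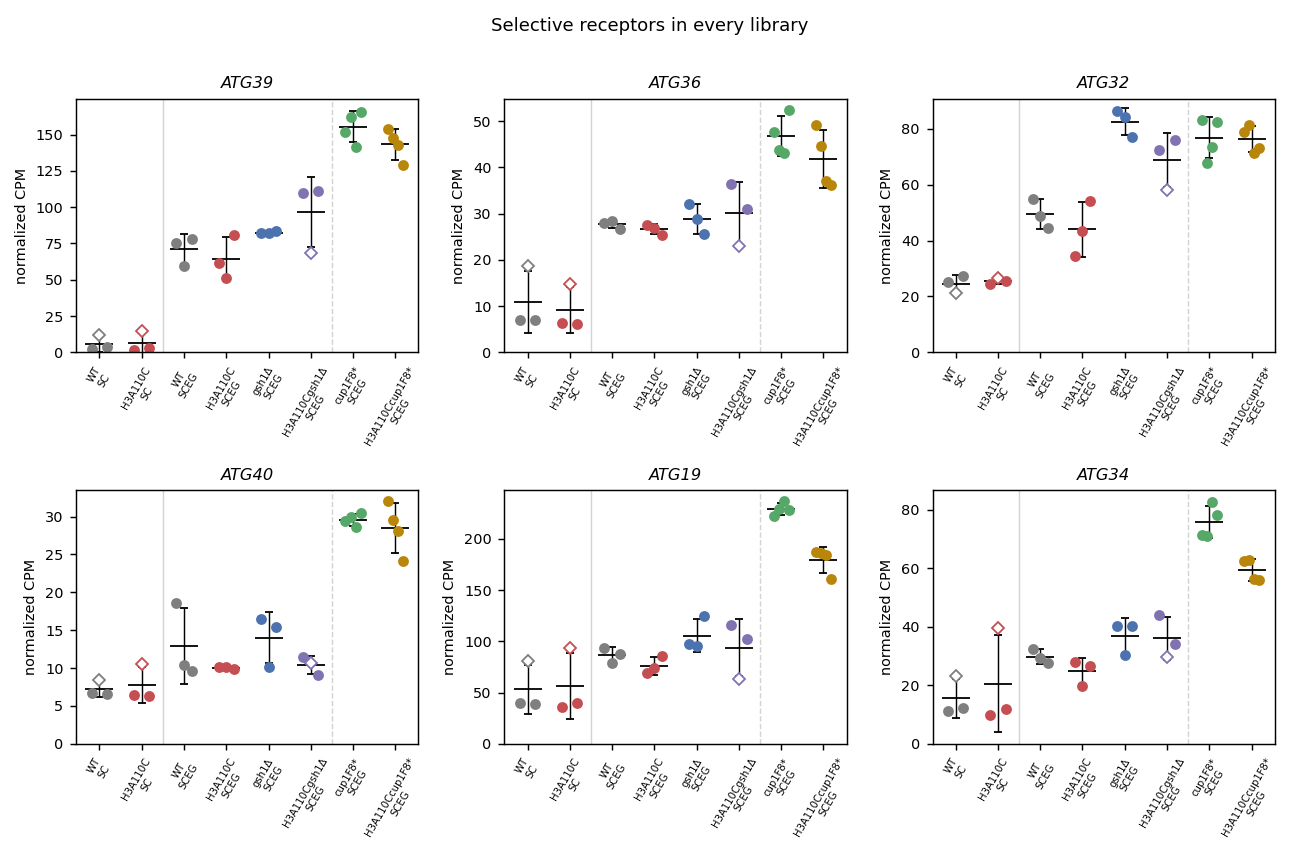
Normalized CPM of the 6 receptor genes in each library of the 8 groups, with the mean and SD. Open diamonds mark SC libraries B and H3A110Cgsh1Δ_SCEG library 2, the solid line parts SC from SCEG, and the dashed line sets off the 8 cup1F8* libraries. ATG39 lies between 1.69 and 15 CPM in SC and between 51.5 and 166 in SCEG, and all 6 receptors are highest in the cup1F8* strains or, for ATG32, in gsh1Δ.

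Among core genes in WT, ATG10, an enzyme of Atg12 conjugation, rose by 0.80, ATG2 by 0.72, ATG9 by 0.60, ATG5 by 0.59 and ATG1, the kinase, by 0.55. ATG1 was at 24.0, 24.5 and 31.6 CPM in SC and 37.4, 34.1 and 45.6 in SCEG, without overlap. ATG27 fell, from 132, 137 and 133 CPM to 107, 99.7 and 89.9 (log2 fold change -0.43 ± 0.10, adjusted p = 0.00971), and so did ATG18, which binds the lipid made by the phosphatidylinositol 3-kinase, from 49.8, 58.6 and 48.7 to 42.8, 37.7 and 40.1 (log2 fold change -0.38 ± 0.12, adjusted p = 0.0320). Both were below SC in all 3 SCEG libraries. Of the 6 fits that left out 1 library, ATG18 kept its call in 1, ATG9 in 2, ATG1 in 3 and ATG10 in 4, while ATG2, ATG5 and ATG27 kept it in all. ATG8 was not called (log2 fold change 0.73 ± 0.47, adjusted p = 0.242), and its groups overlapped through library B alone. ATG41 was not called either (log2 fold change -0.11 ± 0.51, adjusted p = 0.878), and without SC library B its difference was 0.73 (adjusted p = 0.00904, with up to 0.984 over 12 alternatives).

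In H3A110C, 12 of 36 members were called higher in SCEG (33.3%, against 23.8% of 5795 genes) and 2 lower (5.56%, against 23.4%). Of the 12, 9 had also been called higher in WT: ATG39, ATG36, ATG32, ATG1, ATG2, ATG10, ATG11, ATG15 and ATG33. Leaving out 1 library in H3A110C, ATG2, ATG15 and ATG33 kept their call in 1 of 6 fits each and ATG10 in 3, and the other 5 of the 9 kept it in all 6. ATG39 rose by 3.29 ± 0.71 (SE), from the SC values above to 61.4, 51.5 and 80.7 CPM. ATG36 was at 6.38, 14.8 and 6.07 CPM in SC and 27.6, 26.9 and 25.4 in SCEG (log2 fold change 1.57 ± 0.35, adjusted p = 0.0102). ATG41 rose, to 62.5, 66.3 and 56.4 CPM (log2 fold change 1.39 ± 0.29, adjusted p = 0.00771), and ATG10 rose by 1.05 from 2.53, 3.16 and 3.41 to 7.96, 6.22 and 4.68 CPM. ATG1 was at 24.1, 29.2 and 23.6 CPM in SC and 44.5, 38.8 and 49.5 in SCEG (log2 fold change 0.81 ± 0.15, adjusted p = 0.00433). ATG32 was at 24.6, 26.6 and 25.5 CPM and 34.4, 43.5 and 54.2 (log2 fold change 0.80 ± 0.18, adjusted p = 0.00994). In all 6 genes every SCEG library was above every SC library. The falls were ATG27 (-0.40, from 141, 126 and 138 to 109, 94.8 and 99.2 CPM) and ATG16, of which ATG27 kept its call in 4 of 6 such fits. ATG19 (35.4, 93.2 and 39.6 CPM in SC, 69.1, 73.6 and 85.6 in SCEG), ATG34 (9.996, 39.6 and 11.9 in SC, 28.1, 19.7 and 26.7 in SCEG) and ATG40 (6.503, 10.5 and 6.35 in SC, 10.1, 10.1 and 9.81 in SCEG) overlapped between media and were not called.

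The counts for medium rested on the libraries used. Without SC library B, 23 members were called higher in WT (33.2% of all genes) and 24 in H3A110C (33.7%). ATG8 then rose by 1.52 and 1.55 in the 2 strains, and ATG19 by 1.14 and 1.03. Leaving out WT_SC library A gave 7 members higher in WT, and leaving out WT_SCEG library 1 gave 8. In H3A110C, leaving out SC library A gave 6, and leaving out SC library C or any 1 SCEG library gave 7. Members called lower in H3A110C numbered 1 without SC library A or C. With scaling by total counts alone, which moved the median of all genes by 0.20 in WT and 0.21 in H3A110C, 20 members were higher and 1 lower in WT, and 16 higher and 1 lower in H3A110C. No member passed the test of whether H3A110C altered the difference between media (0.0% of 5915 genes, edgeR's quasi-likelihood test of the interaction term), and DESeq2 called 0. An unadjusted p below 0.05 was found for 1 member, and over all 5915 genes for 50 higher and 62 lower. Without the SC libraries lettered B, 0 members and 1 gene of all tested were called.

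ATG16, the partner of Atg5 and Atg12, had 28 to 82 counts in the 6 SC libraries and 0 to 3 in the 20 SCEG libraries, 12 of which had 0. Its mean level in SC was at least 9.40-fold over the floor of 3 counts per library of WT_SCEG, and at least 8.11-fold over that of H3A110C_SCEG. The same split between library sets was seen in 42 genes with at most 3 counts in every SCEG library and at least 10 in every SC library. They included HYP2, the essential gene of a translation factor, with 1269 to 1854 CPM in SC and 0 counts in all 20 SCEG libraries, and the ribosomal protein gene RPL39. Whether the ATG16 values reflect the cells or the counting was not tested. Without ATG16, 13 of 35 members were higher and 2 lower in WT, and 12 higher and 1 lower in H3A110C. ATG16 was too low to be tested in any comparison within SCEG, which left 35 members there.

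Genes that work beside the ATG proteins gave other counts. Of all genes tested in WT, 25.6% were called higher in SCEG and 25.3% lower. Of 8 genes for vacuolar hydrolases and Cvt cargo, 5 were higher in SCEG in WT, and the largest rises were those of AMS1, a mannosidase delivered by the Cvt pathway (1.87), and PRB1, a vacuolar protease (1.08). In H3A110C 2 of the 8 were higher, near the share of all genes (23.8%). Of 20 partners in vacuolar fusion and membrane supply, 2 were higher and 4 lower in WT, and of 12 genes of TORC1, the kinase complex that restrains autophagy, and of its amino acid sensing 2 were higher and 1 lower. Among 15 regulators of ATG transcripts 2 were higher and 5 lower, with GCN4 (0.78) and GLN3 (0.52) the rises and PHO23 (-0.73) and RPH1 (-0.73) the largest falls.

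H3A110C alone left the members without a call in either medium. In SC none of 36 was called by edgeR's quasi-likelihood test (0.0174% of 5737 genes higher, 0.0% lower), and DESeq2 called 0. No member had an unadjusted p below 0.05, and of all 5737 genes 12 higher and 12 lower did. The median member differed by 0.02, and every member's groups overlapped. That overlap says little, since library B lay apart in both groups, and it was not counted over all genes. The B libraries deviated together, while A and C correlated as highly across letters as within them. With the letter as a block, 0 members and 2 genes of all tested were called. Without the B libraries 0 members and 5 genes were called. In SCEG none of 35 was called by edgeR's quasi-likelihood test (0.0176% of 5671 genes higher and 0.0176% lower). An unadjusted p below 0.05 was found for 4 members, and over all 5671 genes for 146 higher and 194 lower. DESeq2 called 1 member. That 1 was ATG41, with 28.6, 27.3 and 39.8 CPM in WT_SCEG and 62.5, 66.3 and 56.4 in H3A110C_SCEG (log2 fold change 0.96 ± 0.16, adjusted p = 0.0872). All 3 H3A110C libraries were above all 3 WT libraries. Over 13 alternatives its adjusted p ranged from 0.000159 (DESeq2) to 0.618, and without WT_SCEG library 3 it was 0.0300, which gave 1 member higher. With the replicate number as a block, 1 member was called higher, and 98 genes of all tested were called in either direction. The log2 fold changes of the 6 receptors lay between -0.38 and -0.06, and none was called.

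Loss of GSH1 went with higher levels of a smaller group. In the WT background, 9 of 35 members (25.7%) were called higher in gsh1Δ, against 12.5% of 5678 genes, and none lower, against 12.8%. DESeq2 called 8 higher and 0 lower. An unadjusted p below 0.05 in either direction was found for 14 members, and over all 5678 genes for 1108 higher and 1079 lower. ATG41 led, at 160.2, 156 and 188 CPM in gsh1Δ against the WT values above (log2 fold change 2.41 ± 0.15, adjusted p = 1.75e-06), which was its highest group. ATG32 was at 86.4, 84.1 and 77.1 CPM in gsh1Δ and 55.1, 48.7 and 44.3 in WT (log2 fold change 0.75 ± 0.11, adjusted p = 0.000917). ATG1 was at 63.8, 63.3 and 57.5 CPM against 37.4, 34.1 and 45.6 (log2 fold change 0.67 ± 0.13, adjusted p = 0.00405). In these 3 genes each gsh1Δ library was above each WT library. ATG8 was at 64.0, 60.6 and 76.4 CPM against 46.8, 36.4 and 44.1 (log2 fold change 0.66 ± 0.13, adjusted p = 0.00546). ATG22, an exporter of amino acids from the vacuole, was at 64.5, 51.5 and 66.1 CPM against 40.2, 37.3 and 41.6 (log2 fold change 0.62 ± 0.13, adjusted p = 0.00595). The groups did not overlap in either gene. ATG15, a vacuolar lipase (0.59), ATG9 (0.50), ATG11 (0.48) and ATG18 (0.41) completed the set, of which ATG9 kept its call in 1, ATG18 in 2 and ATG11 in 3 of 6 fits that left out 1 library. The other receptors were not called, with ATG19 at 96.9, 95.4 and 124 CPM, ATG34 at 40.3, 30.2 and 40.4, ATG36 at 32.1, 28.8 and 25.7, ATG39 at 82.1, 81.9 and 83.6 and ATG40 at 16.4, 10.1 and 15.4 in gsh1Δ.

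**Figure D4:**
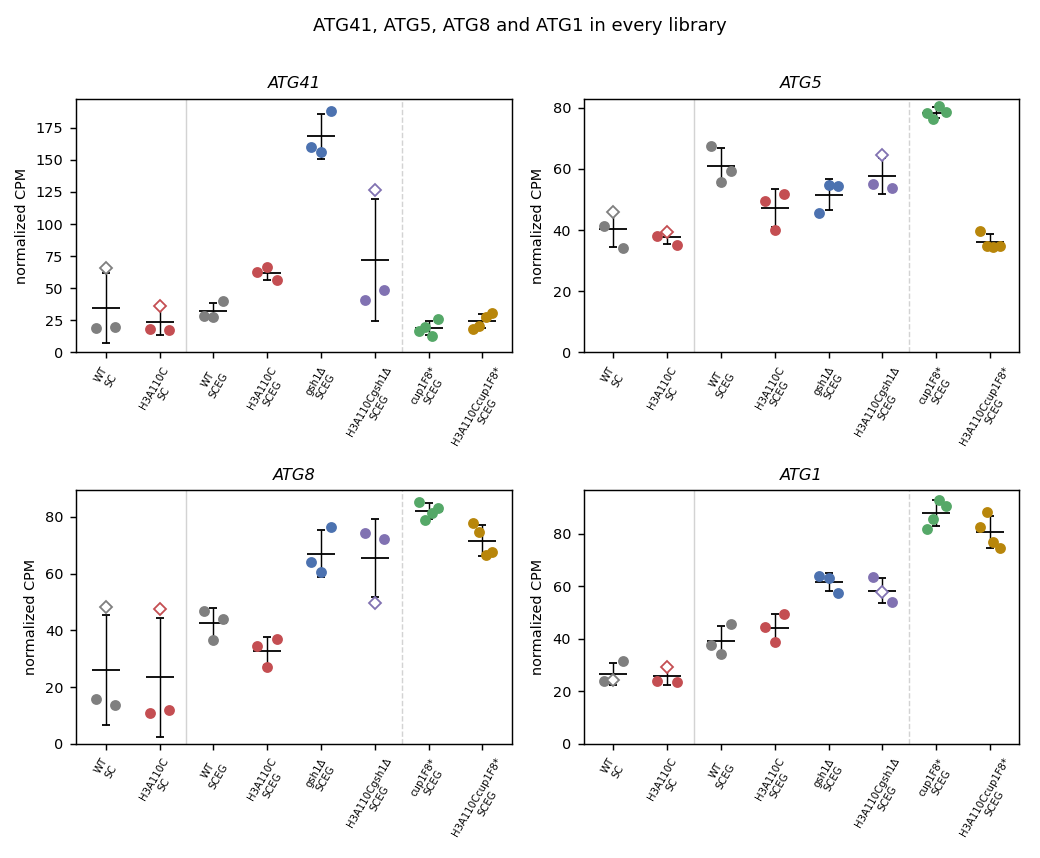
Normalized CPM of ATG41, ATG5, ATG8 and ATG1 in each library of the 8 groups, with the mean and SD. Open diamonds mark SC libraries B and H3A110Cgsh1Δ_SCEG library 2. ATG41 peaks in gsh1Δ_SCEG (156 to 188 CPM), and ATG5 lies between 34.6 and 39.8 CPM in H3A110Ccup1F8*_SCEG and between 76.3 and 80.5 in cup1F8*_SCEG.

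With H3A110C present, the deletion gave 1 called member of 35, ATG8, which rose (2.86%, against 4.59% of 5685 genes), and none lower (0%, against 4.03%). DESeq2 called 3 higher and 0 lower. Of the members, 7 had an unadjusted p below 0.05, and of all 5685 genes 736 higher and 660 lower did. The 1 fit over all SCEG libraries called 10 members higher. That fit called 1367 genes in either direction, against 490 in the main fit. With the replicate number as a block, 5 members were called higher, and 691 genes of all tested were called in either direction. ATG8 was at 74.4, 49.8 and 72.2 CPM in H3A110Cgsh1Δ and 34.4, 27.2 and 36.8 in H3A110C (log2 fold change 0.98 ± 0.19, adjusted p = 0.0170). The groups did not overlap, but the call was lost without H3A110C_SCEG library 1 or 2 or H3A110Cgsh1Δ_SCEG library 3. ATG41 was at 41.0, 127 and 48.8 CPM in H3A110Cgsh1Δ, with library 2 far above the other pair (log2 fold change 0.23 ± 0.38, adjusted p = 0.736). Without library 2 its difference turned to -0.46 (adjusted p = 0.0265, with up to 0.902 over 13 alternatives), and 16 members were called higher (15.9% of all genes) and 1 lower (14.7%). ATG1 was at 63.3, 57.9 and 53.8 CPM in H3A110Cgsh1Δ and ATG32 at 72.4, 58.0 and 76.0. ATG39, at 110.0, 68.7 and 111 CPM, ATG19, at 116, 62.9 and 102, ATG34, at 44.2, 29.6 and 34.2, and ATG36, at 36.5, 23.1 and 31.0, were each lowest in library 2, while ATG40 was at 11.5, 10.6 and 9.07.

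Set against gsh1Δ, none of 35 members was called in H3A110Cgsh1Δ (0.264% of 5690 genes higher, 0.58% lower), and DESeq2 called 0. An unadjusted p below 0.05 was found for 4 members, and over all 5690 genes for 451 higher and 441 lower. All 3 ATG41 libraries were below those of gsh1Δ (log2 fold change -1.20 ± 0.37, adjusted p = 0.186). Without H3A110Cgsh1Δ_SCEG library 2, 6 members were called higher (8.49% of all genes) and 2 lower (9.33%), with ATG41 at -1.92 (adjusted p = 1.71e-05, the lowest of 13 alternatives that reached up to 0.493). No member passed the test of whether H3A110C altered the response to the deletion (0.226% of 5751 genes higher, 0.139% lower), and DESeq2 called 1 lower. Of the members, 5 had an unadjusted p below 0.05, and of all 5751 genes 428 higher and 376 lower did. The largest term was that of ATG41 (log2 fold change -2.15 ± 0.47, adjusted p = 0.0733), and without library 2 it was -2.87 (adjusted p = 2.13e-05, with up to 0.0718 over 6 alternatives).

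Around the ATG genes, 4 of the 8 hydrolase and cargo genes were higher in gsh1Δ and 1 lower in the WT background, led by APE1, the main Cvt cargo (0.96), and PRB1 (0.84), with APE4 (-0.80) the fall. Of the 15 regulators 6 were higher, with MSN4 (0.76) and MSN2 (0.72), general stress factors, first, and 1 lower, the RNA helicase gene DHH1 (-0.38). Of all 5678 genes, 12.5% were called higher and 12.8% lower in gsh1Δ against WT. By edgeR's quasi-likelihood test none of the 12 TORC1 genes and none of the 20 fusion partners was called. An unadjusted p below 0.05 was found for 1 TORC1 gene and 2 fusion partners, and over all 5678 genes for 1108 higher and 1079 lower. With H3A110C, where 4.59% of all genes were called higher, 3 hydrolase and cargo genes were higher, led by PRB1 (1.73) and APE1 (0.71).

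The highest group mean of 28 of the 36 members was in a cup1F8* strain. The same share over all genes was not computed, so this count has no background beside it. In cup1F8* against WT, 28 of 35 members (80%) were called higher, against 34.3% of 5904 genes, and 1 lower (2.86%), against 34.8%. All 6 receptors rose, with a median of 1.15, and 16 of 21 core genes rose and 1 fell, with a median of 0.74. The median over all genes tested was 0.00. With H3A110C on both sides, 26 of 35 members were called higher (74.3%, against 35.1% of 5873 genes) and 2 lower (5.71%, against 33.9%), and 25 were called higher in both backgrounds. The cup1F8* libraries were the deeper set, and every member of these comparisons is subject to the limit that genotype and library set cannot be told apart. With scaling by total counts alone, which moved the median of all genes by 0.16 and 0.11, 31 members were higher and 1 lower in the WT background, and 28 higher and 2 lower with H3A110C.

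ATG29, a small scaffold subunit of the Atg1 complex, was at 9.01, 5.21 and 10.6 CPM in WT_SCEG and 20.4, 25.8, 27.3 and 27.6 in cup1F8* (log2 fold change 1.63 ± 0.21, adjusted p = 6.77e-05). ATG17, the main scaffold, was at 16.4, 16.03 and 17.6 CPM and 44.6, 45.5, 51.1 and 54.4 (log2 fold change 1.55 ± 0.11, adjusted p = 9.67e-07). ATG14 was at 6.41, 8.33 and 7.31 CPM and 22.0, 17.4, 19.7 and 22.7 (log2 fold change 1.47 ± 0.16, adjusted p = 1.82e-05). Every cup1F8* library was above every WT library in these 3 genes. All 5 members of the Atg1 complex were called higher, and so were VPS30, ATG14 and ATG38 of the lipid kinase complex. Its subunit genes VPS34 and VPS15 are not members and were counted among the fusion and membrane partners. Values were lower for VPS30 (0.66), ATG13 (0.52) and ATG31 (0.39). ATG38, which holds the lipid kinase complex together, was at 14.6, 15.6 and 12.1 CPM in WT_SCEG and 36.2, 36.5, 38.8 and 41.3 in cup1F8* (log2 fold change 1.42 ± 0.11, adjusted p = 2.17e-06). ATG19 was at 93.9, 79.1 and 87.9 CPM and 222, 229, 237 and 228 (log2 fold change 1.39 ± 0.07, adjusted p = 9.76e-08). ATG41 was the fall, at 16.6, 19.7, 12.9 and 25.6 CPM (log2 fold change -0.76 ± 0.23, adjusted p = 0.0119), below every WT library, and the call was lost without WT_SCEG library 3 (adjusted p = 0.0625, the highest of 14 alternatives that began at 0.00191).

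The remaining receptors, ATG8 and ATG1 were also higher in cup1F8* than in WT. ATG39 was at 152, 162, 142 and 166 CPM in cup1F8*, a rise of 1.12. ATG34 was at 71.3, 71.2, 82.7 and 78.1 CPM (1.34) and ATG40 at 29.4, 29.95, 28.6 and 30.4 (1.18). Neither overlapped WT. ATG32 was at 83.2, 67.9, 73.5 and 82.5 CPM (0.63) and ATG36 at 47.7, 43.7, 43.1 and 52.4 (0.75). ATG8 was at 85.2, 78.8, 81.4 and 83.2 CPM (0.95) and ATG1 at 81.8, 85.8, 93.0 and 90.6 (1.17). All were above WT without overlap, and ATG8 and ATG1 were also above every gsh1Δ library. Members without a call were ATG10, ATG23, ATG15, ATG18, ATG11 and ATG27, with log2 fold changes from -0.04 to 0.36, and ATG31 kept its call in 3 of 7 fits that left out 1 library.

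**Figure D5:**
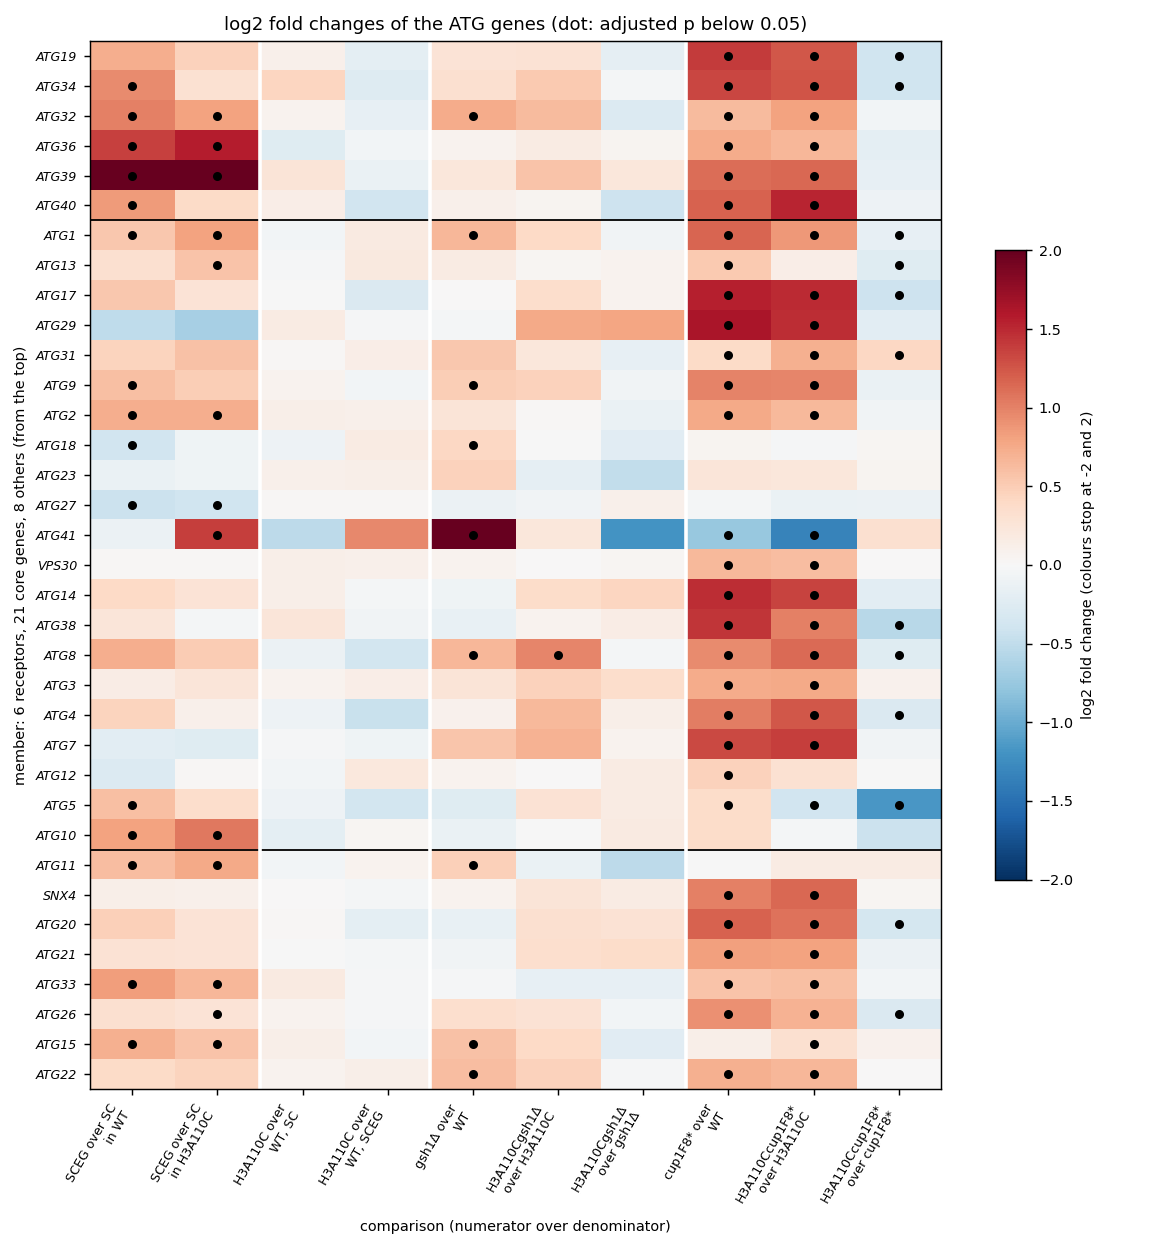
log2 fold change of 35 members (rows, receptors at the top, then core genes, then others) in the 10 comparisons (columns), with a dot where the adjusted p was below 0.05. ATG16 is left out, and colours stop at -2 and 2, which 3.68 and 3.29 for ATG39 and 2.41 for ATG41 exceed. The pair of columns for cup1F8* holds 28 and 26 called rises, and the columns for H3A110C alone hold no dot.

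With H3A110C on both sides, ATG40 led the rises in cup1F8*, from 10.1, 10.1 and 9.81 to 32.1, 29.5, 28.1 and 24.1 CPM (log2 fold change 1.52 ± 0.15, adjusted p = 2.34e-06). ATG17 rose from 11.7, 15.5 and 13.6 to 35.7, 40.1, 38.1 and 37.9 CPM (log2 fold change 1.49 ± 0.12, adjusted p = 5.72e-07), and ATG29 from 8.90, 5.18 and 10.03 to 25.3, 24.4, 22.8 and 17.5 (log2 fold change 1.47 ± 0.21, adjusted p = 6.81e-05). Groups were clear of each other in all 3 genes. ATG7, the activating enzyme of both conjugation reactions, was at 16.6, 17.4 and 18.9 CPM in H3A110C and 46.9, 52.8, 44.2 and 39.4 in H3A110Ccup1F8* (log2 fold change 1.38 ± 0.13, adjusted p = 1.88e-06). ATG14 was at 8.90, 3.63 and 8.69 and 19.5, 19.99, 18.5 and 14.8 CPM (log2 fold change 1.35 ± 0.24, adjusted p = 0.000327). ATG41 fell to 18.2, 20.8, 27.7 and 30.3 CPM (log2 fold change -1.34 ± 0.16, adjusted p = 1.39e-05). ATG5, which rose in the WT background, fell with H3A110C: H3A110C_SCEG was at 49.4, 40.1 and 51.9 CPM and H3A110Ccup1F8* at 39.8, 34.7, 34.6 and 34.9 (log2 fold change -0.38 ± 0.11, adjusted p = 0.00740). Of the other receptors, H3A110Ccup1F8* held ATG39 at 154, 148, 143 and 129 CPM, ATG36 at 49.2, 44.7, 37.0 and 36.2 and ATG32 at 78.7, 81.5, 71.5 and 73.2, all above H3A110C.

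Within the cup1F8* set, where both groups came from 1 series of libraries, more members fell than rose with H3A110C. Of 35 members 11 were called lower (31.4%, against 25.9% of 5906 genes) and 1 higher (2.86%, against 24.6%), with a median of -0.12 against -0.01 over all genes. The share that fell was near the background, and the share that rose was far below it. ATG5, to which Atg12 is attached, fell most: cup1F8* libraries were at 78.2, 76.3, 80.5 and 78.5 CPM and H3A110Ccup1F8* libraries at 39.8, 34.7, 34.6 and 34.9 (log2 fold change -1.16 ± 0.06, adjusted p = 6.57e-08). ATG38 was at 25.6, 27.6, 29.3 and 25.3 CPM in H3A110Ccup1F8*, against the cup1F8* values above (log2 fold change -0.55 ± 0.08, adjusted p = 8.87e-05). In ATG5 and ATG38 the 4 libraries with H3A110C were all below the 4 without it. ATG17 fell by 0.41, ATG19 by 0.40 (to 187, 186, 184 and 161 CPM) and ATG34 by 0.40 (to 62.5, 62.9, 56.2 and 56.0 CPM), again without overlap. ATG20, a sorting nexin (-0.35), ATG4, the Atg8 protease (-0.28), ATG26, a sterol glucosyltransferase (-0.28), ATG13 (-0.25) and ATG8 (-0.24, to 77.7, 74.5, 66.7 and 67.5 CPM) also fell. ATG1 was called too, with overlapping groups (82.7, 88.2, 76.8 and 74.6 CPM in H3A110Ccup1F8*, -0.17, adjusted p = 0.0485), and kept the call in 2 of 8 fits that left out 1 library. ATG31, a subunit of the Atg1 complex, was the rise, from 14.7, 12.9, 13.97 and 11.99 to 18.7, 19.99, 16.5 and 17.9 CPM (log2 fold change 0.41 ± 0.10, adjusted p = 0.00447), and 2 members were higher without cup1F8*_SCEG library 4 or H3A110Ccup1F8*_SCEG library 1.

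The test of whether the H3A110C difference depended on cup1F8* called 2 members lower, ATG5 (log2 fold change -0.80 ± 0.13, adjusted p = 0.00116) and ATG13 (log2 fold change -0.44 ± 0.12, adjusted p = 0.0193), against 7.79% of 5954 genes, and none higher, against 8.36%. DESeq2 called 2 lower and 0 higher. Of the members, 5 had an unadjusted p below 0.05, and of all 5954 genes 976 higher and 870 lower did. Without cup1F8*, ATG5 was at 67.5, 55.8 and 59.2 CPM in WT_SCEG, above the H3A110C_SCEG values given earlier (-0.37, adjusted p = 0.699 by edgeR's quasi-likelihood test), and ATG13, the regulatory subunit that TORC1 phosphorylates, differed by 0.19 (adjusted p = 0.938). The ATG13 libraries were at 72.9, 67.9 and 81.1 CPM in WT_SCEG, 71.7, 97.4 and 84.7 in H3A110C_SCEG, 108, 103, 109 and 106 in cup1F8* and 93.9, 88.6, 94.5 and 91.5 in H3A110Ccup1F8*, so the order of the strains was opposite in the 2 sets, with overlap in the first. This test also spans the library sets.

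Many partner genes were also called in cup1F8* against WT, where 34.3% of all genes were called higher and 34.8% lower. In the WT background 7 of 8 hydrolase and cargo genes (87.5%), 15 of 20 fusion partners (75%), 7 of 12 TORC1 genes (58.3%) and 7 of 15 regulators (46.7%) were higher, and 1, 0, 2 and 1 were lower. The other 5 fusion partners, 3 TORC1 genes and 7 regulators were not called. The largest rises in each list were PRB1 (1.61) and AMS1 (1.26), the vacuolar SNARE gene NYV1 (1.0) and the lipid kinase subunit gene VPS38 (0.95), TAP42 (0.66) and SEA1 (0.60), and DHH1 (0.77) and MSN2 (0.50). No fusion partner was called lower by edgeR's quasi-likelihood test, and KOG1 (-0.42), a TORC1 subunit gene, was lower. H3A110C within the cup1F8* set gave 5 of 8 hydrolase and cargo genes lower and 2 higher, led by PRB1 (-1.21) and LAP3 (-0.81). Of the 12 TORC1 genes 5 were lower and none higher, with SEA1 at -0.46. Of all 5906 genes in this comparison, 25.9% were called lower and 24.6% higher.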

How the data were processed

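RNA was hot phenol extracted after 2 to 3 doublings, and stranded poly-A libraries were sequenced. The authors aligned reads with HISAT2 to sacCer3 and counted them per open reading frame with featureCounts; the deposited table holds raw counts for 6692 open reading frames in 26 libraries, and DESeq2 is named among their tools. Here, each pair of groups was fitted alone with edgeR 4.0.16 (TMM scaling, filterByExpr, glmQLFit and glmQLFTest), with Benjamini-Hochberg adjustment over all genes tested. Interaction terms used the 4 groups concerned. DESeq2 1.42.0, other scalings and filters, all SCEG libraries in one fit, a replicate block and leaving out each library were alternatives. R 4.3.3, Python 3.11.15 and matplotlib 3.10.9 were used, and the count test was checked on simulated counts. Promoters were read from the RefSeq R64 assembly. At 3 counts, the floor was at most 0.318 CPM in SC, 1.03 in SCEG without cup1F8* and 0.396 with it. The SC columns carry letters that do not match the numbered labels, so they were used by group only. Deviations of SC libraries from their group means correlated at 0.546 to 0.847 across genes over 3 same-letter pairs. Pairs of A with C reached 0.604 and 0.673, so only B stood out by letter. The letter as a block was added after seeing the data. Values were printed for each library for ATG8, ATG1, ATG41, the 6 receptors and up to 5 called rises and 5 called falls whose libraries did not overlap in a comparison, with up to 2 rises and 2 falls of partner genes. Other genes and libraries were named after their values were seen. The members, lists and tests were chosen with earlier results of these data known. Every member's coding sequence was unique in all 50-base windows. ATG29 overlaps YPL165C by 24 bases on the other strand, and the counting was strand-specific.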

Additional observations from a re-analysis of the deposited data

Results flagged for a closer look

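Of 70 groups of 4 libraries, 1 for each member and strain, 4 held a single library set off from the other 3. Chance alone flags about 1 in 20 groups, and 4 of 70 is near that share. ATG5 in H3A110Ccup1F8*_SCEG had library 1 at 39.8 CPM against 34.6 to 34.9, a gap of 0.936 of the range. ATG19 in the same group had library 4 at 161 CPM against 184 to 187 (0.889), and ATG18 had library 3 at 38.3 against 46.0 to 47.1 (0.873). ATG27 in cup1F8*_SCEG had library 2 at 98.0 CPM against 95.8 to 96.1 (0.832), a small gap in CPM between libraries that otherwise lay close together. The interaction of H3A110C with cup1F8* was called for ATG5, at -0.795 (adjusted p = 0.00116, edgeR's quasi-likelihood test), and for ATG13, at -0.437 (adjusted p = 0.0193). That test spans the library sets, from which cup1F8* cannot be told apart.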

How the results depend on the processing

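Of the recomputed counts of called members, 260 stayed within 1.5 times the reported count and 38 did not, and the cause was not tested. Counts that were 0 both times are among the 260, so that number overstates how stable the other counts were. With total counts only, 20 members were higher and 1 lower for medium in WT, and 1 was lower in H3A110C. With at least 10 counts in every library, 1 was lower for medium in H3A110C. Without the SC libraries lettered B, 23 and 24 were higher. DESeq2 called 1 member higher for H3A110C in SCEG, 3 for gsh1Δ in H3A110C and 1 lower for the gsh1Δ interaction. With all SCEG libraries in one fit, 10 were higher for gsh1Δ in H3A110C, 3 lower for H3A110C in gsh1Δ, 0 lower for cup1F8* in WT and 6 lower for H3A110C in cup1F8*. In that order, the fit called 1367, 536, 4031 and 2192 genes of all tested, against 490, 48, 4078 and 2982 in the main fits.

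With a replicate block, 1 member was higher for H3A110C in SCEG and 5 for gsh1Δ in H3A110C, and no other count moved by over 1.5 times. Of all genes tested, the block called 98 for H3A110C in SCEG, against 2 without it. For gsh1Δ in H3A110C it called 691, against 490. Same-numbered SCEG libraries correlated weakly in some comparisons and not in others. Correlations of same-numbered deviations ran from 0.0475 to 0.302 for H3A110C in SCEG, where different numbers reached 0.099 and averaged -0.0872. Deviations from a group mean cancel out, so the averages over different numbers nearly follow from the same-numbered values and do not test pairing. Same-numbered values ran from 0.00425 to 0.254 for gsh1Δ in H3A110C, where different numbers averaged -0.0608 but reached 0.299. For H3A110C in cup1F8* they ran from -0.118 to -0.0029, against an average of 0.0195 for different numbers. No replicate block was possible for medium, since the SC columns carry no number. The B libraries in SC deviated together (0.847). A and C correlated as highly across letters (0.604 and 0.673) as within them (0.640 and 0.546), so the letters did not pair them. With the letter as a block, H3A110C in SC had 0 members called, as without it.

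Leaving out 1 library gave 7 to 23 members higher and 2 to 3 lower for medium in WT, 6 to 24 higher and 1 to 2 lower in H3A110C, 0 to 1 higher for H3A110C in SCEG, 0 to 16 higher and 0 to 1 lower for gsh1Δ in H3A110C, 0 to 6 higher and 0 to 2 lower for H3A110C in gsh1Δ, 0 to 1 lower for cup1F8* in WT, and 1 to 2 higher for H3A110C in cup1F8*. The gsh1Δ interaction had 1 lower without H3A110Cgsh1Δ_SCEG library 2. ATG41 changed direction to 0.73 for medium in WT without library B (adjusted p = 0.00904, with up to 0.984 over 12 alternatives) and to -0.46 for gsh1Δ in H3A110C without library 2.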
